A study of Mus musculus with 4 samples.

Results

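The genes described here move lipids into, between and out of liver cells. They are the fatty acid carrier Cd36, the lipoprotein receptors Vldlr, Lrp1 and Scarb1, the lipases Lpl and Lipc, the phospholipid transfer protein gene Pltp, and the sterol exporters Abca1 and Abcg1. Their rows were found by Entrez number in tables of RefSeq transcripts and summed per gene, which gave all 9 genes, with 18 transcripts, among 17543 genes in any liver. The series measured liver RNA by sequencing in C57BL/6 mice of 2 genotypes. One group was wild type (WT), and the other, Ezh2(K307R/K307R), was homozygous for the K307R point mutation of Ezh2, the catalytic subunit of the Polycomb complex that methylates lysine 27 of histone H3. There were 2 livers of each genotype, labelled replicates 1 and 2, and no liver is described as treated. The labels give no sex, age, feeding state or hour of collection, and do not say that replicates came from separate animals. The p values therefore reflect only how far these samples spread, with the spread shared in part across genes by the test. That spread may be technical.

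Lipid reaches the liver cell by several routes. Lipoprotein lipase, the product of Lpl, and hepatic lipase, the product of Lipc, cut triglycerides and phospholipids of circulating lipoproteins. The freed fatty acids can enter cells through CD36. Receptors of the LDL receptor family, to which VLDLR and LRP1 belong, take up whole particles or remnants, whereas SCARB1, a relative of CD36, takes up cholesterol esters from high-density lipoprotein. PLTP moves phospholipids between particles, and ABCA1 and ABCG1 export cholesterol and phospholipids to apolipoprotein A1 and to high-density lipoprotein. In adult liver Lipc is a hepatocyte gene, whereas Lpl and Vldlr are known for low levels there and high levels in muscle, heart and fat.

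The livers differed in more than the allele of Ezh2. Deposited counts summed to between 18602928 and 20044832 per liver. Xist, the RNA that coats an inactive X chromosome in female cells, was at 0.347 and 0.284 CPM in the wild type (CPM, that is, reads on a library size common to all livers) and at 327 and 573 CPM in the mutants. Of 5 sex chromosome genes, Xist was higher and the 4 Y-linked genes (Ddx3y, Eif2s3y, Uty and Kdm5d) were lower, with 0 reads in both mutant livers. Both wild-type livers thus carried the male and both mutant livers the female pattern of these genes. The clock activator Arntl was at 1.10 and 1.18 CPM in the wild type and at 12.3 and 23.7 CPM in the mutants. Some clock genes also differed widely between the 2 mutant livers, named here after their values were seen. Dbp was at 32.4 and 1.02 CPM there (135.8 and 115.5 CPM in the wild type) and Per3 at 14.6 and 3.02 CPM (45.5 and 41.0 CPM). Others differed less, such as Nr1d1 at 87.2 and 75.7 CPM in the mutants. Genotype, sex-chromosome pattern and clock state changed together in these 4 livers and cannot be told apart in any result below. The 8 hepatocyte markers summed to 139700 and 138500 CPM in the wild type and to 128700 and 131000 CPM in the mutants, of which Alb alone was at 98490 to 105300 CPM. Of the 8, 6 had a negative log2 fold change, with a median of -0.19. None of them passed the test between the genotypes (edgeR, with 0 of the 8 at an unadjusted p under 0.05 and 0 by DESeq2).

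Of the 9 genes, Vldlr, Cd36 and Pltp rose in the Ezh2 K307R livers and Lpl fell, in the quasi-likelihood test of edgeR with a threshold of 0.05 on the Benjamini-Hochberg adjusted p. Vldlr rose 9.75-fold, Cd36 7.64-fold and Pltp 5.67-fold, and Lpl fell by 2.32 on the log2 scale. Lipc, Abcg1, Lrp1, Scarb1 and Abca1 did not pass the test. Beside these 4 calls stand those of 2.86% of the 12837 genes tested, with 178 higher (1.39%) and 189 lower (1.47%). The 9 genes were chosen with earlier results of these data known, so no enrichment is read from the 2 shares. With total-count scaling 188 genes were higher and 124 lower, a share of 60.3% higher against 48.5%, and the same 4 of the 9 genes were called. The median log2 fold change was 0.61 over the 9 genes and 0.01 over all genes tested. In none of the 9 genes did the CPM of the genotypes overlap, with 7 higher and 2 lower in both mutant livers. Of all genes tested, 48.6% were free of overlap, 25.2% higher and 23.4% lower. The gene lists in this text are also given at looser settings, which far more of all genes pass. Between 1919 and 2306 of the 12837 genes had an unadjusted edgeR p under 0.05. DESeq2 called 368 genes higher and 370 lower of 17483 fitted.

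**Figure D1:**
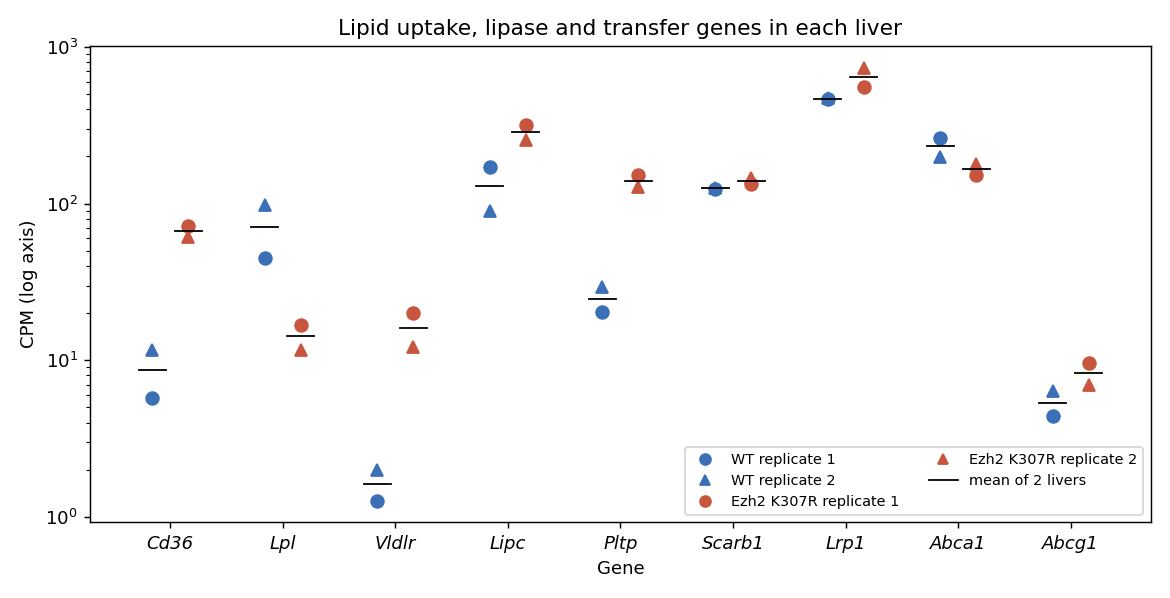
CPM of each gene in each liver on a log axis, with circles for replicate 1, triangles for replicate 2 and bars for the mean of 2 livers. The genotypes lie far apart for Cd36, Vldlr, Pltp and Lpl, and close together for Scarb1 (wild-type livers at 124 and 127 CPM, mutant livers at 134 and 145 CPM).

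The promoters of the 3 genes that rose are shown so that they can be set against their counts, and those of Lipc because its transcripts begin at separate sites. Vldlr and Lipc each have 2 windows in the table, and all are shown. Each window runs from 250 bases before to 50 bases after a start site, 5′ to 3′ on the gene's strand, from NCBI RefSeq on GRCm38.p6, the assembly of mm10. Of the 9 genes, 6 had an entry in this table, with 8 windows. Lpl, Scarb1 and Abcg1 had none. Capitals mark matches on either strand to any of 6 motifs. Of 32851 RefSeq promoter windows of this length, 13.6% hold a TATA box (TATAAA), 37.4% a CCAAT box (CCAAT), 35.7% a GC box (GGGCGG), 16.3% a nuclear receptor half-site (AGGTCA), 7.15% an E-box (CACGTG) and 8.30% a STAT site (TTCNNNGAA). No 2 of the motifs share bases in the windows below.
Vldlr upstream start, chr19:27216234-27216533, plus strand: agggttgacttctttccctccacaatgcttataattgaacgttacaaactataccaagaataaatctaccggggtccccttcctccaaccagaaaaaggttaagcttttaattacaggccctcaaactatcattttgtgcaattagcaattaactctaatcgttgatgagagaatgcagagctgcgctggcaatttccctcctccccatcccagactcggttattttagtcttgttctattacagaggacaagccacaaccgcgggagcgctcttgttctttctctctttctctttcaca
Vldlr downstream start, chr19:27216770-27217069, plus strand: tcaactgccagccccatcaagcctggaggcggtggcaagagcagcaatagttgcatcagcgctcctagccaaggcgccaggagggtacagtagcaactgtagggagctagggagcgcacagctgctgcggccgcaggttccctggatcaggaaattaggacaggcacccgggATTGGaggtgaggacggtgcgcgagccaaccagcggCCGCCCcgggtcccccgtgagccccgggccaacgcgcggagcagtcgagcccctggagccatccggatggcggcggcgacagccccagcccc
Cd36, chr5:17835847-17836146, minus strand: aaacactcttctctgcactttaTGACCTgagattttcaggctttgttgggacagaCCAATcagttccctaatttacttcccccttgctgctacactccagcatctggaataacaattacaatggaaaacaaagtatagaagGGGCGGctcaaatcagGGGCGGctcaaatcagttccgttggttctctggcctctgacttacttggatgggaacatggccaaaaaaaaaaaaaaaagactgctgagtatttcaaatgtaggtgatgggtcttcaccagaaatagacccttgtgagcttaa
Pltp, chr2:164857659-164857958, minus strand: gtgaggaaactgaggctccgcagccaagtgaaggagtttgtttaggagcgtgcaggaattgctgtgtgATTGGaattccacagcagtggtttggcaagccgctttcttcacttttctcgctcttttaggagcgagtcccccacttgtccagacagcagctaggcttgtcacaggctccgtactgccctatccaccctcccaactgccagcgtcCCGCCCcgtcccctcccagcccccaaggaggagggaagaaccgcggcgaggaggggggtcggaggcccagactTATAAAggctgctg
Lipc downstream start, chr9:70934759-70935058, minus strand: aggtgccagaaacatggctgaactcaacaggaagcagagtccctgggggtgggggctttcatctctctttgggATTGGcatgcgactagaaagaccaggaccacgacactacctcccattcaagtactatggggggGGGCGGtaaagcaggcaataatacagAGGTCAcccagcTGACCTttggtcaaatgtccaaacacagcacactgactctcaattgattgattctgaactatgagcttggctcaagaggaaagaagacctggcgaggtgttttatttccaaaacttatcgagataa
Lipc upstream start, chr9:70952172-70952471, minus strand: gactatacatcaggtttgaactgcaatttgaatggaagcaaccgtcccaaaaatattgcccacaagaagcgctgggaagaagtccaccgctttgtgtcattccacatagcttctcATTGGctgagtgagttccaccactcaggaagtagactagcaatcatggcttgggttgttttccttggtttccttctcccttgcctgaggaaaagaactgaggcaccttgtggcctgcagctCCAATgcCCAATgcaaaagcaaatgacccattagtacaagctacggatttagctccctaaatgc

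The upstream window of Vldlr held none of the 6 motifs, so that no motif was present in every window. The CCAAT box was present in all the others, and the GC box in all the others but the upstream window of Lipc. The windows of Vldlr were 43.0% (upstream) and 68.0% (downstream) G and C, against 59.0% for Pltp, 43.0% for Cd36, and 48.7% and 47.0% for the downstream and upstream windows of Lipc. The window of Pltp had 1 TATA box, beginning 36 bases after the annotated start. The window of Cd36 held 2 GC boxes and 1 nuclear receptor half-site. The downstream window of Lipc held 2 half-sites, on opposite strands and beginning 88 and 76 bases before the start. No E-box or STAT site was found in these windows, which says only that those letters are absent there. Of the windows not shown, that of Abca1 held 1 E-box and that of Lrp1 held 1 STAT site.

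Cd36 (Entrez 12491, chromosome 5 from 17781690 to 17888959, minus strand) encodes a membrane glycoprotein that binds long-chain fatty acids and oxidised lipoproteins, and is known for higher levels in female than in male rodent liver. The wild-type livers gave 99 and 245 of its reads and the mutant livers 1351 and 1200. The level was 5.73 and 11.6 CPM in WT and 71.7 and 61.4 CPM in the mutants. Both mutant livers stood well above both wild-type livers, and the wild-type livers differed from each other 2.02-fold. The mean rose from 8.66 ± 4.15 to 66.5 ± 7.28 CPM (SD, n = 2 each). On the log2 scale the rise was 2.93 (SE 0.33, 95% interval 2.17 to 3.69, edgeR adjusted p = 0.00612). With 1 liver left out, it ran from 2.52 (without WT replicate 1) to 3.53 (without WT replicate 2, the higher of the wild-type livers).

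Vldlr (Entrez 22359, chromosome 19 from 27216480 to 27254231, plus strand) encodes the receptor for triglyceride-rich very low density lipoprotein. It was the lowest of the 9 genes in the wild type, with 22 and 42 reads, against 380 and 236 in the mutants. The level was 1.27 and 1.99 CPM in WT and 20.2 and 12.1 CPM in the mutants. The lower mutant liver was thus several times above the higher wild-type liver, though the mutant livers differed 1.67-fold. The mean rose from 1.63 ± 0.506 to 16.1 ± 5.72 CPM, and the log2 fold change was 3.29 (SE 0.36, 95% interval 2.45 to 4.12, edgeR adjusted p = 0.00539). On the log2(FPKM + 1) scale, FPKM being reads scaled to transcript length and library depth, the change was 1.30 with a limma adjusted p of 0.0566, and on log2(FPKM + 0.1) it was 2.83 with 0.0578. A pseudocount understates the change of a gene this low. Whether that is why the call was lost on these scales was not tested.

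Scarb1 and Lrp1, the other receptors, did not pass the test. Scarb1 (Entrez 20778, chromosome 5 from 125277087 to 125341094) was at 124 and 127 CPM in the wild type and at 134 and 145 CPM in the mutants. The 4 livers lay within a narrow band, and the log2 fold change was 0.15 (SE 0.19, 95% interval -0.29 to 0.60, edgeR adjusted p = 0.755). Lrp1 (Entrez 16971, chromosome 10 from 127538157 to 127621148), a large endocytic receptor for remnants and many other ligands, was at 464 and 469 CPM in the wild type and at 556 and 738 CPM in the mutants. The wild-type livers were nearly equal, while the mutant livers spread 1.33-fold. Its log2 fold change was 0.47 (95% interval -0.10 to 1.05, edgeR adjusted p = 0.400). The intervals allow a rise of up to 1.52-fold for Scarb1 and 2.07-fold for Lrp1.

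The lipases had fold changes of opposite sign. Lpl (Entrez 16956, chromosome 8 from 68880555 to 68906932, plus strand) gave 772 and 2061 reads from wild-type and 317 and 228 from mutant livers. Its level was 44.7 and 97.6 CPM in WT and 16.8 and 11.7 CPM in the mutants. Every wild-type value exceeded every mutant value, and the wild-type livers differed 2.18-fold. The mean fell from 71.1 ± 37.4 to 14.2 ± 3.64 CPM, a log2 fold change of -2.32 (SE 0.38, 95% interval -3.20 to -1.45, edgeR adjusted p = 0.0244). Without WT replicate 2 the log2 fold change was -1.65 (adjusted p = 0.00212), and without Ezh2 K307R replicate 2 the call was lost (-2.08, adjusted p = 0.0646). It was also lost with limma on log2(FPKM + 1) (-1.89, adjusted p = 0.0901) and on log2(FPKM + 0.1) (-2.12, adjusted p = 0.0849).

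Lpl is abundant in fat, macrophages and some mesenchymal cells. Of 7 adipocyte markers, Lep and Plin1 had no reads in any liver, and Adipoq, Cfd and Retn had 1 read each over the 4 livers, so that the defining markers of fat cells were at or near 0. The summed adipocyte list, made up almost wholly of Fabp4 and Adrb3, was at 5.96 and 15.2 CPM in the wild type and at 5.36 and 3.12 CPM in the mutants. Fabp4, a fatty acid-binding protein of fat cells, macrophages and endothelium, was at 4.17 and 11.0 CPM in the wild type and at 2.07 and 1.79 CPM in the mutants (log2 fold change -1.98, edgeR adjusted p = 0.0755). Like Lpl, it was highest in WT replicate 2, as was Col1a1, a collagen of stellate cells chosen after its values were seen, at 48.6 CPM there, 17.5 CPM in WT replicate 1 and 7.06 and 4.81 CPM in the mutants (edgeR adjusted p = 0.0365). Of the 8 stellate cell markers, 6 had a positive log2 fold change, and the median of the list was 0.80. The part of these genes in the result for Lpl was not tested. In bulk liver, fewer cells of a type and less RNA per cell cannot be told apart.

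Lipc (Entrez 15450, chromosome 9 from 70798128 to 70952221, minus strand) gave 2946 and 1898 reads from wild-type and 6020 and 4971 from mutant livers. The level was 170 and 89.8 CPM in WT and 319 and 254 CPM in the mutants. The groups did not overlap, but the wild-type livers differed 1.90-fold, and the log2 fold change of 1.14 (SE 0.32, 95% interval 0.39 to 1.89) did not pass the test (edgeR adjusted p = 0.122). It passed with DESeq2 (1.13, adjusted p = 0.00744), with no filter on low counts (1.14, edgeR adjusted p = 0.0329) and without WT replicate 1 (1.67, edgeR adjusted p = 0.00646), and was at 0.75 (0.261) without WT replicate 2. Per length, Lipc was 8.24 and 1.99 times the FPKM of Lpl in the wild-type livers and 41.5 and 47.4 times in the mutant livers.

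**Figure D2:**
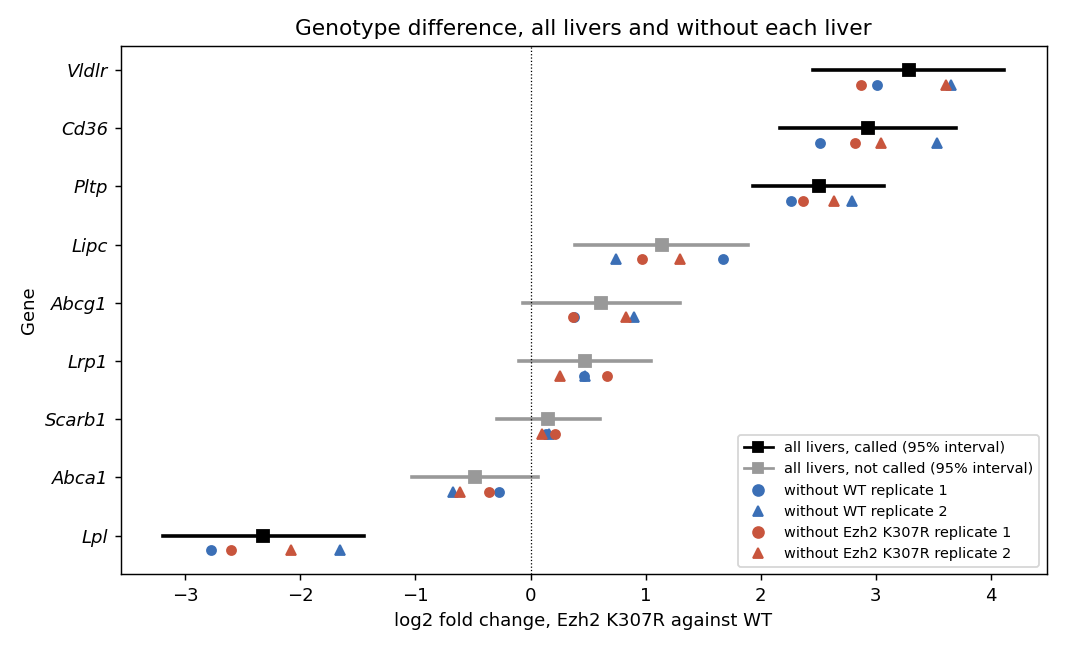
Log2 fold change of each gene between the genotypes with its 95% interval over all livers (squares, black where called), and below each the value after leaving out 1 liver. Vldlr, Cd36, Pltp and Lpl lie apart from 0 in every fit, with Lpl between -2.78 and -1.65, while Lipc moves from 0.75 to 1.67 according to which wild-type liver is left out.

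Pltp (Entrez 18830, chromosome 2 from 164839518 to 164857708, minus strand) gave 349 and 616 reads from wild-type and 2886 and 2486 from mutant livers. Its level was 20.2 and 29.2 CPM in WT and 153 and 127 CPM in the mutants. The wild-type livers differed 1.44-fold and the mutant livers 1.20-fold, and the gap between the genotypes was larger than either spread. The mean rose from 24.7 ± 6.34 to 140 ± 18.3 CPM, a log2 fold change of 2.50 (SE 0.25, 95% interval 1.94 to 3.07, edgeR adjusted p = 0.00348). It had the smallest p of the 9 genes. The last 1515 bases of Pltp overlap the end of Ctsa, the cathepsin A gene on the opposite strand (chromosome 2 from 164839518 to 164841032 in GENCODE M21), and no source used here says whether reads were counted by strand. Ctsa itself was at 180 and 192 CPM in the wild type and at 203 and 168 CPM in the mutants, with overlapping groups (log2 fold change -0.001, 95% interval -0.50 to 0.49).

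The exporters did not pass the test, and their fold changes differed in sign. Abca1 (Entrez 11303, chromosome 4 from 53030789 to 53159988) was at 263 and 200 CPM in the wild type and at 151 and 180 CPM in the mutants. Both mutant livers were below both wild-type livers, but the nearest values of the genotypes were closer than the wild-type livers were to each other. The log2 fold change was -0.48 (SE 0.24, 95% interval -1.03 to 0.06, edgeR adjusted p = 0.360). Abcg1 (Entrez 11307, chromosome 17 from 31057694 to 31117984), best known from macrophages, was at 4.40 and 6.34 CPM in the wild type and at 9.55 and 6.96 CPM in the mutants. The higher wild-type and the lower mutant liver were almost level. Its log2 fold change was 0.61 (SE 0.30, 95% interval -0.07 to 1.30, edgeR adjusted p = 0.350).

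Macrophages, endothelium and stellate cells express several of the 9 genes, among them Cd36, Lpl, Pltp and Abcg1. The 8 Kupffer cell and macrophage markers summed to 158 and 193 CPM in the wild type and to 321 and 211 CPM in the mutants, and none passed the test (edgeR, with 4 higher and 0 lower at an unadjusted p under 0.05, and 1 higher by DESeq2). The 8 sinusoidal endothelial markers summed to 78.2 and 108 CPM in the wild type and to 118 and 126 CPM in the mutants, none of them called (2 higher and 1 lower at an unadjusted p under 0.05, and 0 by DESeq2). The 8 stellate cell markers summed to 154 and 266 CPM in the wild type and to 317 and 244 CPM in the mutants. Among them Dcn, a matrix proteoglycan, rose (log2 fold change 1.36, edgeR adjusted p = 0.0347) and Col1a1 fell (-2.48). None of the 24 markers of these 3 lists was at 0 reads in all livers. Their part in the results for the 9 genes was not tested. The bile duct list was at 54.5 to 70.4 CPM in the wild type and at 32.0 to 60.0 CPM in the mutants, the lymphocyte and neutrophil list at 13.9 to 16.3 and at 13.4 to 20.5 CPM, and the red blood cell list at 437 to 553 and at 674 to 770 CPM. Of the 5 red blood cell markers, 4 had a positive log2 fold change (edgeR, with 4 higher and 1 lower at an unadjusted p under 0.05, and 3 higher and 1 lower by DESeq2). Alas2, the haem synthesis enzyme of red cells, was the 1 that fell (-1.94, edgeR adjusted p = 0.0277).

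Levels of different genes were compared per transcript length, by the FPKM of the deposited tables summed over the transcripts of a gene. In the wild type the order of mean FPKM, from high to low, was Lipc (65.2), Scarb1 (48.4), Lrp1 (30.0), Abca1 (21.4), Lpl (17.4), Pltp (13.5), Cd36 (2.49), Abcg1 (0.900) and Vldlr (0.190). The ranges of Lipc and Scarb1, of Abca1 and Lpl, and of Lpl and Pltp overlapped between neighbours, so that these neighbours did not differ beyond their spread. In the mutants the order was Lipc (157), Pltp (79.7), Scarb1 (56.6), Lrp1 (43.9), Cd36 (19.7), Abca1 (16.3), Lpl (3.56), Vldlr (1.97) and Abcg1 (1.44), and Vldlr and Abcg1 were the neighbours whose ranges overlapped. Within a liver, the FPKM of Scarb1 was 30.0 and 15.0 times that of its relative Cd36 in WT and 2.55 and 3.23 times in the mutants, and that of Lrp1 was 211 and 130 times that of Vldlr in WT and 15.3 and 33.6 times in the mutants.

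**Figure D3:**
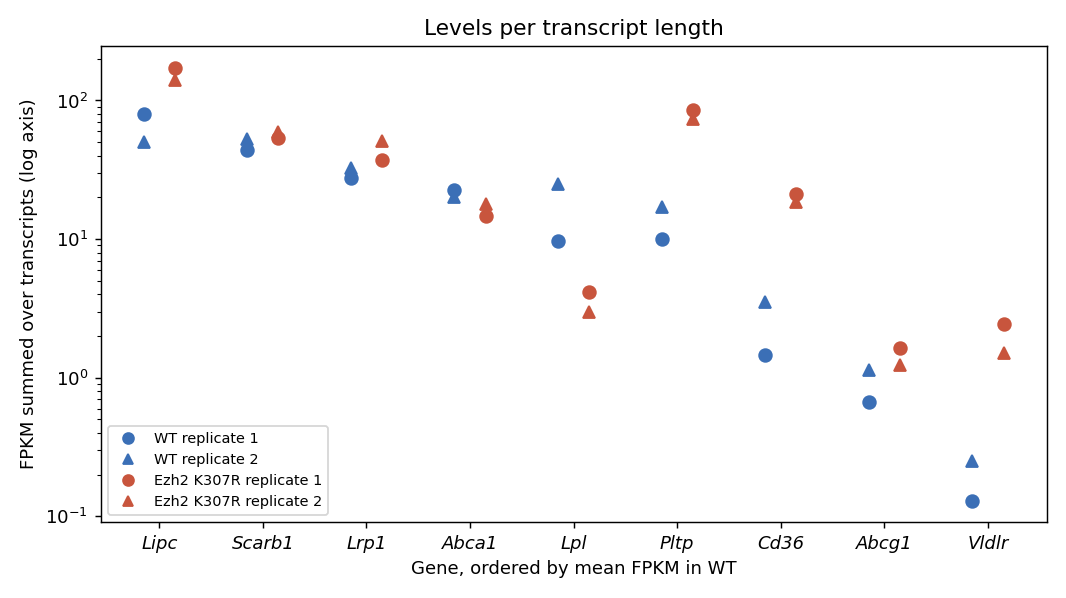
FPKM summed over the transcripts of each gene in each liver, on a log axis, with genes ordered by their wild-type mean. Pltp, at 10.0 and 17.0 FPKM in the wild type, lies at 85.9 and 73.5 FPKM in the mutants, and Lpl falls from 9.76 and 25.1 to 4.16 and 2.97 FPKM.

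Of the 9 genes, Lipc, Cd36, Vldlr and Scarb1 had several transcripts in the tables. RSEM divides the reads of a gene between its transcripts by estimation, so that the intervals given here (95% Wilson) cover counting error only and not that division. The Lipc transcript NM_001324473, which GENCODE M21 pairs with a transcript that begins at the upstream start and has a shorter coding sequence (1275 against 1530 bases), took 16.0% (14.7 to 17.3) and 20.1% (18.4 to 22.0) of the counts of Lipc in the wild type. It took 34.2% (33.0 to 35.4) and 25.8% (24.6 to 27.0) in the mutants. Both mutant shares lay above both wild-type shares. The share of NM_001324472 went the other way, from 60.6% and 48.1% to 30.0% and 34.3%, with the mutant livers below both wild-type livers, and that of NM_008280 was 23.4% and 31.8% against 35.8% and 39.9%. GENCODE M21 pairs both of these with 1 and the same transcript, and the start used by NM_001324472 was not settled here, so that the shares do not show a switch between the starts. In FPKM, NM_001324473 was at 13.7 and 10.7 in the wild type and at 62.3 and 38.5 in the mutants, whereas NM_001324472 was at 48.3 and 23.8 and at 50.6 and 47.6. No test was run on these shares, which are a description.

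In Cd36 the transcript NM_001159556 held most counts in every liver, at 66.0% (55.9 to 74.3) and 77.7% (71.9 to 82.3) in WT and 66.8% (64.3 to 69.3) and 64.4% (61.7 to 67.1) in the mutants. Wild-type and mutant shares overlapped. NM_001159557 was at 8.10% and 0% in the wild type and at 22.1% and 25.7% in the mutants. The counts behind the wild-type shares were few, 99 and 245 reads in all. In GENCODE M21 the transcript paired with NM_001159556 begins at position 17849792 of chromosome 5, upstream of the Cd36 window shown above, whose start at 17835896 lies near that of the transcript paired with NM_007643 and NM_001159555 (17835696). The window shown is therefore not the promoter of the transcript to which most counts were assigned.

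The Vldlr transcripts differ by an 84-base coding exon (chromosome 19 from 27246593 to 27246676), present in NM_013703 and absent from NM_001161420, an exon known to encode the O-linked sugar domain of the receptor. All counts of Vldlr were assigned to NM_013703 in WT replicate 1 and to NM_001161420 in WT replicate 2 and in Ezh2 K307R replicate 2. In Ezh2 K307R replicate 1, NM_001161420 took 58.5% (53.4 to 63.3) and NM_013703 41.5% (36.7 to 46.6). The assignment thus differed between replicates of each genotype, and the sum over both transcripts was used for the gene. In GENCODE M21 the transcript paired with NM_013703 begins at position 27217357 of chromosome 19, past both Vldlr windows shown above. The transcript paired with NM_001161420 begins at the downstream start (27217020). In Scarb1, the main transcript NM_016741 took 80.2% and 83.8% of counts in WT and 87.1% and 88.7% in the mutants, while NM_001205082, which has 12 exons against 13 in the GENCODE pairing, took 18.4% and 15.8% against 12.6% and 10.5%. Both mutant livers had the larger share of NM_016741, a difference of a few percentage points in a gene whose total hardly moved.

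**Figure D4:**
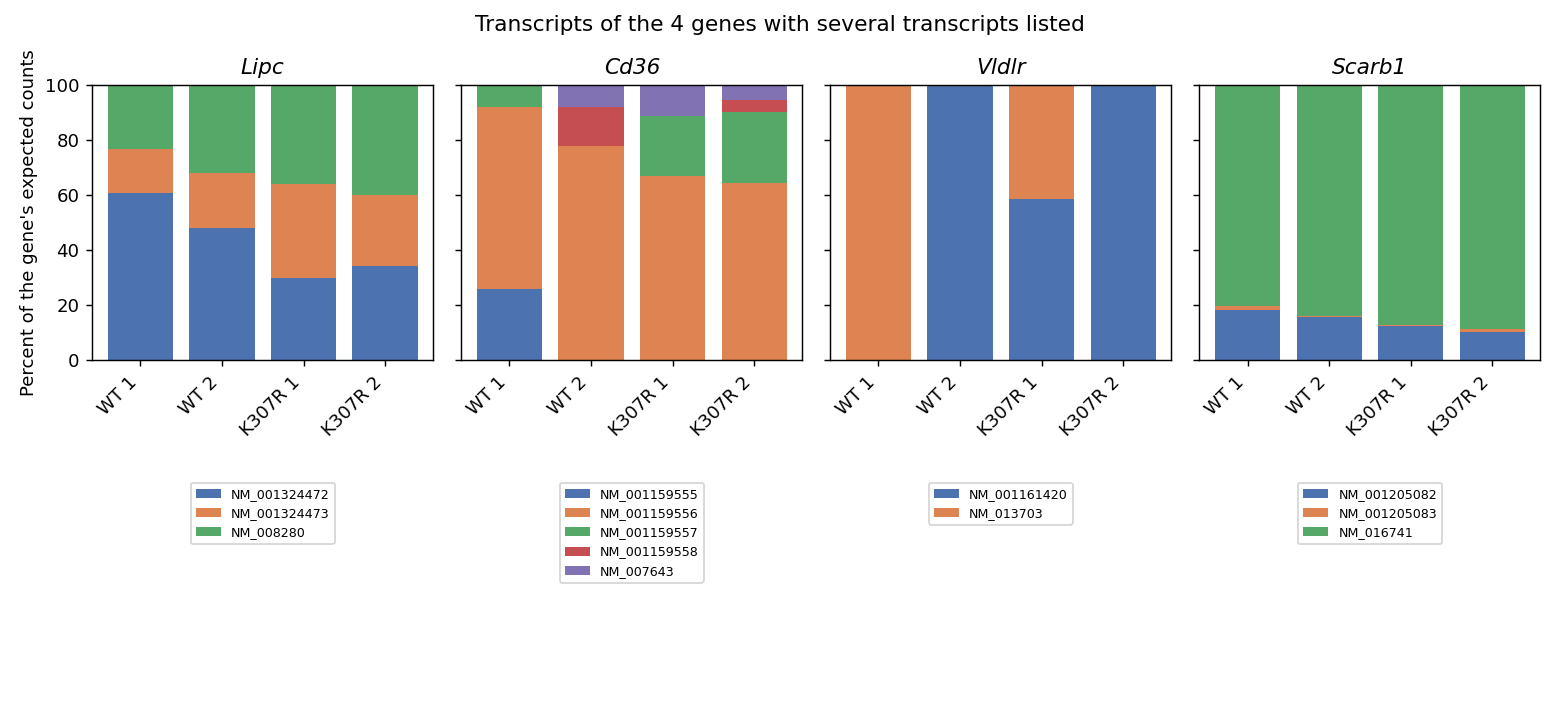
Percent of each gene's expected counts assigned to each RefSeq transcript, by liver, for the 4 genes with several transcripts. The orange share of Lipc, NM_001324473, is larger in both mutant livers (34.2% and 25.8%) than in both wild-type livers (16.0% and 20.1%), whereas the transcripts of Vldlr change place between replicates.

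In the main edgeR test the other genes of these routes gave few calls. Over 5 lists of 80 genes, 73 were tested and 2 were called, which is 2.74% of them. This is near the 2.86% of all genes, and the median log2 fold change of the 73 was 0.12. More of these genes passed at the looser settings, given list by list below. No share over the 5 lists was formed there, so nearness to all genes is shown for the main test only. Among 16 genes of fatty acid uptake and binding, 1 fell and 0 rose (edgeR, with 2 higher and 4 lower at an unadjusted p under 0.05, and 0 higher and 2 lower by DESeq2). The one that fell was Acsl4, which activates arachidonic acid to its CoA ester, from 123 ± 5.44 to 50.6 ± 6.25 CPM (n = 2 each, log2 fold change -1.28, SE 0.19, edgeR adjusted p = 0.0182), a call lost without Ezh2 K307R replicate 1 (-1.16, adjusted p = 0.0610). Next in order of p were Fabp4, given above, and the fatty acid transporter Slc27a1, at 2.43 and 5.63 CPM in the wild type and at 7.64 and 12.1 CPM in the mutants (edgeR adjusted p = 0.170). Fabp4 passed with DESeq2 (0.00349), with no filter (0.00664) and without WT replicate 1 (-2.51, 3.58e-04), but was at -1.11 (0.172) without WT replicate 2. Slc27a1 passed with no filter (0.0448) and without WT replicate 2 (2.02, 0.00845), but was at 0.81 (0.260) without WT replicate 1. Of the 16 genes, 6 had a positive and 10 a negative log2 fold change.

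None of the 15 lipase partners and related lipases passed the test (edgeR, with 4 higher and 1 lower at an unadjusted p under 0.05, and 2 higher by DESeq2). Apoa5, an activator of lipoprotein lipase, was at 808 ± 36.6 CPM in the wild type and at 1460 ± 107 CPM in the mutants (n = 2 each, log2 fold change 0.85, edgeR adjusted p = 0.124). Lipa, the lysosomal acid lipase, had a log2 fold change of 0.74 (adjusted p = 0.130), and the proprotein convertase Pcsk6 one of 0.73 (0.152). DESeq2 called Apoa5 (adjusted p = 0.00415) and Lipa (0.0276).

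None of the 17 other lipoprotein receptors and partners tested was called either (edgeR, with 4 higher and 1 lower at an unadjusted p under 0.05, and 2 higher by DESeq2). Sdc1, a heparan sulfate proteoglycan that binds remnants, was at 181 ± 13.7 CPM in the wild type and at 304 ± 17.7 CPM in the mutants (log2 fold change 0.75, edgeR adjusted p = 0.125). The Wnt coreceptor Lrp5 had a log2 fold change of 0.96 (adjusted p = 0.151), and the sorting receptor Sort1 one of -0.73 (0.185). With DESeq2, Sdc1 (adjusted p = 0.0217) and Lrp5 (0.0392) passed, and Lrp5 also passed without Ezh2 K307R replicate 1 (1.35, edgeR adjusted p = 0.0184) and with no filter (0.0491), but was at 0.42 (0.562) without Ezh2 K307R replicate 2.

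Of the 12 sterol and phospholipid exporters tested besides Abca1 and Abcg1, none passed (edgeR, with 2 higher and 2 lower at an unadjusted p under 0.05, and 1 higher and 2 lower by DESeq2). Abcg5, which with ABCG8 secretes sterols into bile, was at 151 and 152 CPM in the wild type and at 93.2 and 88.2 CPM in the mutants (log2 fold change -0.74, edgeR adjusted p = 0.0899). Abcg2, an exporter of drugs and urate, had a log2 fold change of -1.41 (adjusted p = 0.0802), and Abca2, an endosomal lipid transporter, one of 0.86 (0.0775). DESeq2 called Abcg5 (0.0193), Abcg2 (0.00141) and Abca2 (0.0242), and edgeR with no filter called Abcg2 (0.00745) and Abca2 (0.0323). Abcg2 passed without WT replicate 2 (-1.87, edgeR adjusted p = 3.67e-04) but not without WT replicate 1, where its value was -0.74 (0.132), and Abca2 did so without WT replicate 1 (1.05, 0.0445).

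Among 13 lipid-sensing regulators 1 rose and 0 fell (edgeR, with 2 higher and 0 lower at an unadjusted p under 0.05, and 2 higher by DESeq2). Nr1i3, the xenobiotic receptor CAR, rose from 53.3 and 50.1 CPM to 94.2 and 143 CPM (log2 fold change 1.20, SE 0.24, edgeR adjusted p = 0.0441). The call was lost without WT replicate 2 (adjusted p = 0.0626), without Ezh2 K307R replicate 2 (0.87 on the log2 scale, 0.121), with the replicate number as a block (0.0520) and with limma on either FPKM scale (0.0768 and 0.0782). For Srebf2, the activator of cholesterol synthesis, the log2 fold change was 0.87 (edgeR adjusted p = 0.106), and it passed with DESeq2 (0.0312) and with no filter (0.0405). The aryl hydrocarbon receptor gene Ahr had one of 0.42 (edgeR adjusted p = 0.328). The LXR genes Nr1h3 (log2 fold change 0.10, 95% interval -0.31 to 0.52) and Nr1h2 (0.29, -0.15 to 0.72), receptors known to control Abca1 and Pltp, and the PPAR genes Ppara (-0.07, -0.66 to 0.53) and Pparg (0.46, -0.27 to 1.20), known to control Cd36 and Lpl, did not pass the test. The remaining PPAR gene, Ppard (0.45, -0.06 to 0.96), did not pass either. The LXR and PPAR genes were chosen after their values were seen. The activity of these receptors was not measured, and their part in the results for the 9 genes was not tested.

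**Figure D5:**
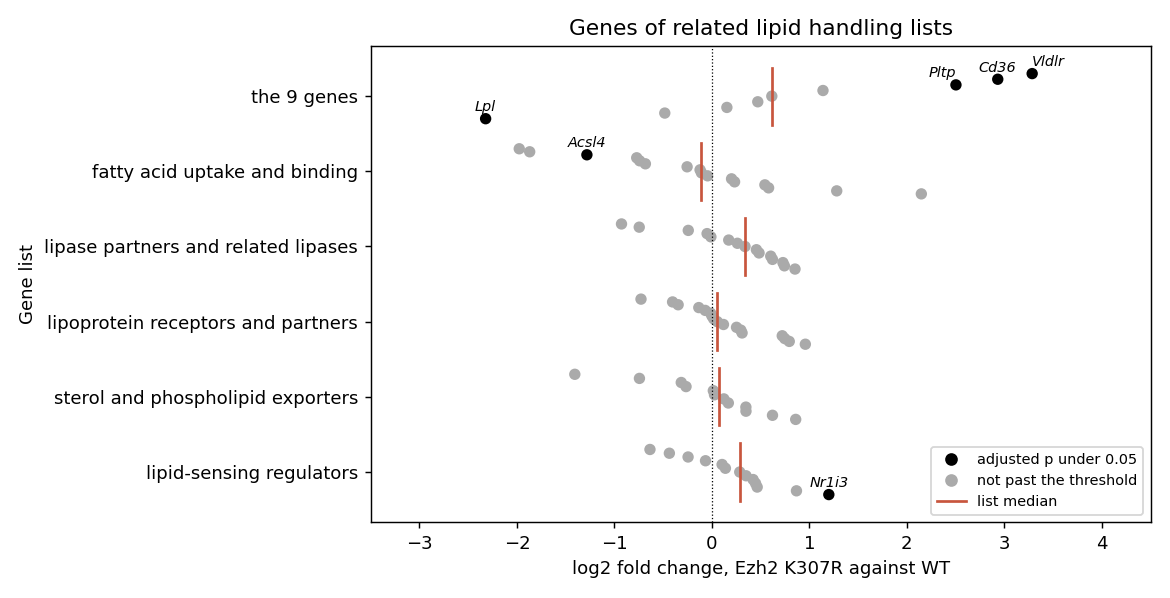
Log2 fold change of the 9 genes and of the tested genes of 5 related lists, with called genes in black and named, and the median of each list as a red line. The called genes are Lpl at -2.32, Pltp at 2.50, Cd36 at 2.93 and Vldlr at 3.29 among the 9, and Acsl4 at -1.28 and Nr1i3 at 1.20 in the lists. Genes of the lists that were not called reach from -1.98 to 2.15. The median absolute log2 fold change of all called genes was 1.87.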

How the data were processed

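RNA of 4 livers was sequenced, and 1 table of RefSeq transcripts was deposited per liver. Per the submitters' processing notes, Bowtie2, HISAT and RSEM were used with mm10. No source used here gives their versions, the step of each aligner or the strand setting. The deposited expected counts, reads that RSEM estimates per transcript, were not normalized by the authors, per the file headers and values. The authors' FPKM are scaled to length and depth, per the file headers, and the smallest listed was 0.01.

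Counts were summed per Entrez gene and rounded. Symbols and coordinates came from RefSeq's table of GRCm38.p6 (99.8% of 17543 genes named, the other 41 kept under their number and holding 0.0377% to 0.0428% of counts), and strands and exons from GENCODE M21. Genes passing filterByExpr (12837, all 9 genes included) were tested with edgeR 4.0.16's quasi-likelihood test in R 4.3.3, with TMM factors from 0.896 to 1.055 and genotype as the term, on 2 residual degrees of freedom, with Benjamini-Hochberg adjustment over all genes tested. Standard errors were derived from fold changes and F values, and errors of CPM are SDs over 2 livers. The script was run on simulated counts only to check that it returned fold changes set in advance. This does not bear on the confounding of these livers. Alternatives used edgeR with other scalings and filters, DESeq2 1.42.0, limma 3.58.1 on log2(FPKM + 1) and log2(FPKM + 0.1) where either genotype averaged at least 1 FPKM, the replicate number as a block, and each liver left out. Named genes are the 9 genes and, from each pathway list, the called genes and the 3 with the smallest p; exceptions are named as such in the text. The 9 genes, the lists and the tests were chosen with earlier results of these data known.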

Additional observations from a re-analysis of the deposited data

How the results depend on the processing

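Of 288 values of the 24 named genes under 12 alternatives, 254 kept their direction and their side of the threshold, 23 newly passed it and 11 no longer did, and all 288 kept their direction. Pltp and Cd36 were called under all 12 alternatives, Vldlr under all but the 2 with FPKM, and Lpl under all but those 2 and the fit without Ezh2 K307R replicate 2, so that the number of the 9 genes called lower was 0 in these 3 and between 0 and 1 when a liver was left out. Over all genes, 368 were higher and 370 lower with DESeq2, 410 and 419 with no filter, 94 and 69 on log2(FPKM + 1), 91 and 70 on log2(FPKM + 0.1), and 124 were lower with total-count scaling. Leaving out a liver gave 117 to 327 higher and 94 to 393 lower genes, where the lone liver of a genotype is assumed to vary like those of the other. The replicate numbers were not shown to pair the livers (correlation of deviations -0.0027 over genes, with 2 pairs), and with the replicate block 166 genes were higher and 181 lower, with the same 4 of the 9 genes called. Depth limits Vldlr most, with 22 and 42 reads in the wild type.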
